A study of Homo sapiens with 12 samples.

Results

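The nuclear response of the cells labelled PC3 to pentamidine was described from 6 RNA-seq libraries of a series of 12. The members are the 3 libraries of cells given 2.5 μM pentamidine for 48 hours and the 3 libraries of cells given vehicle for the same time. They were taken by their labels, and this set was chosen with earlier results of these data known. All 32077 genes left after repeated table entries were merged were included. Of these genes, 13861 held enough counts to be tested. The vehicle was sterile distilled water, and the labels name no other treatment or engineered allele in either group. The 6 remaining libraries come from cells labelled DU145 under the same dose and time, and enter only where the responses of both lines are compared. PC3 is an established androgen-independent line from a bone metastasis of prostate cancer, and each line is a single line grown in culture, so the results hold for these cultures. The labels do not say whether replicates were separate cultures, so p-values measure the spread between these libraries, which may be technical.

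Pentamidine is an aromatic diamidine used against protozoal infections that binds AT-rich DNA and gathers in mitochondria. Cells sense trouble in mitochondria, a lack of amino acids or misfolded protein through kinases that phosphorylate the translation factor eIF2α, and this favours translation of the transcription factor ATF4. ATF4, with C/EBP partners such as CHOP (encoded by DDIT3), switches on genes for amino acid uptake and synthesis, tRNA charging, brakes on growth signalling and secreted hormones, a program known as the integrated stress response. Proliferating cells separately depend on E2F factors for the genes that copy DNA.

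The libraries were first checked against their label, and the check went against it. CTNNA1, the α-catenin gene that PC3 is known to have lost by deletion, lay between 430.1 and 581 CPM in the 6 libraries (CPM are read counts scaled to the library's total), against 393 to 422 CPM in the libraries labelled DU145, and was picked after its values were seen. The epithelial markers EPCAM, CDH1 and KRT19 did not exceed 1 count in any of the 6 libraries, nor 2, 10 and 3 counts in any library labelled DU145, while KRT18 lay between 144 and 210.3 CPM and KRT8 between 16.2 and 21.6 CPM. PAX8 and PAX2, developmental transcription factors of kidney and other urogenital epithelia, were also picked after their values were seen. They lay between 99.99 and 152 CPM and between 33.8 and 54.6 CPM in the 6 libraries. In the libraries labelled DU145 they lay between 160.2 and 236.3 CPM and between 40.6 and 50.5 CPM, so both labels share this trait. Gene totals do not show which exons the reads covered. The study states that its lines were authenticated by short tandem repeat profiling, and the values do not show which cells these are, so PC3 and DU145 stand below for the labels of the libraries and not for an identity of the cells. PAX8 was 150.2 to 152 CPM with vehicle and 99.99 to 105.8 CPM with pentamidine. Markers of blood, endothelium and fibroblasts that the table lists did not exceed 1, 10 and 20 counts in any of the 6 libraries.

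Sequencing depth was even. Totals of counted reads lay between 13514195 and 15131436 per library, and 13570 to 13954 genes had at least 10 counts in a library. The share of counts from genes encoded by mitochondrial DNA was 3.79% to 3.91% with vehicle and 2.66% to 2.76% with pentamidine. All 17 such genes that were tested passed both thresholds, 14 of them lower, and they are not described further here.

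Pentamidine changed many nuclear transcripts, mostly by small amounts, and the large changes were chiefly inductions. A gene was called when its log2 fold change exceeded 1 in size with an adjusted p below 0.05 in edgeR's quasi-likelihood test. Among all 13861 genes tested, 3.44% were called higher and 1.31% were called lower, and at adjusted p below 0.05 alone 21.7% were higher and 21.7% were lower. Of the 13844 nuclear genes, 474 were called higher and 167 lower. Genes called higher outnumbered those called lower at every fold size. Past a 4-fold change there were 102 nuclear genes higher and 11 lower, past 8-fold 42 and 4, and past 16-fold 19 and 3. The median log2 fold change of nuclear genes was 0.01. The 474 genes called higher took 1.21% ± 0.01 (SD, n = 3) of all counts with vehicle and 3.51% ± 0.04 with pentamidine, and the 167 called lower took 0.555% ± 0.009 and 0.229% ± 0.005. These shares come from genes chosen on the same contrast, so they give its scale and test nothing. CPM are shares of a library, and a share cannot tell less RNA of a gene in every cell from fewer cells that make it.

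Calls were most frequent among weakly expressed and noncoding genes. Nuclear genes were divided by mean level into 4 classes of 3461. In the lowest class, 0.506 to 5.10 CPM, 10.9% were called, whereas in the highest, from 73.2 CPM up, 2.23% were. At adjusted p below 0.05 alone the order turned round, with 20.9% in the lowest class and 58.8% in the highest, where the median standard error of the log2 fold change was 0.06 against 0.31. Long intergenic RNAs were called in 44 of 464 cases (9.48%) and antisense RNAs in 43 of 589 (7.30%), against 484 of 11546 (4.19%) for protein-coding genes. Their median levels were 2.09, 1.71 and 37.6 CPM, so type and level cannot be told apart in these shares.

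**Figure D1:**
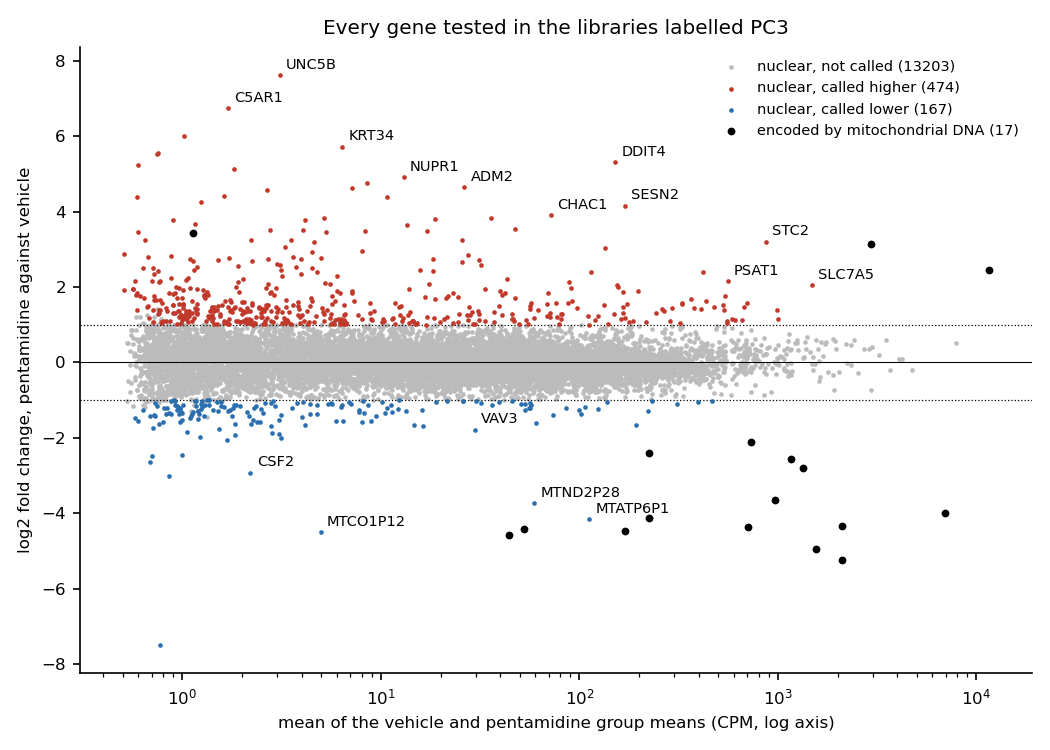
Log2 fold change of each of the 13861 tested genes (y axis) against its mean level in CPM (x axis, log scale) in the libraries labelled PC3. Points past the dotted lines at 1 and -1 with adjusted p below 0.05 are coloured, 474 nuclear genes higher and 167 lower, and black points are the 17 genes encoded by mitochondrial DNA.

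Genes of the ATF4 pathway led the induced side. Of 14 transcription factors and stress regulators of this pathway, all tested, 13 were called higher and none lower, with a median log2 fold change of 3.27 beside 0.005 over all genes. Of all genes tested, 3.44% were called higher and 1.31% lower. The list was written with earlier results of these data known. DDIT4, an inhibitor of the growth kinase mTORC1, stood at 6.70, 7.08 and 8.71 CPM in the vehicle libraries and at 294, 305 and 286 CPM in the pentamidine libraries. It had a log2 fold change of 5.30 (SE 0.08, adjusted p = 2.0e-18). Treated and vehicle libraries did not overlap, which the rule for naming genes requires and which held for 7235 of the 13861 genes tested. SESN2, a leucine sensor that also restrains mTORC1, went from 16.4, 17.6 and 20.03 CPM to 325, 322 and 316 CPM. Its change was likewise far outside the spread, with a log2 fold change of 4.16 (SE 0.07, adjusted p = 8.0e-18). CHAC1, an enzyme that degrades glutathione, measured 8.32, 9.96 and 8.49 CPM with vehicle and 135, 132 and 138 CPM with pentamidine, a log2 fold change of 3.91 (SE 0.08, adjusted p = 1.0e-16). NUPR1, a small stress-induced chromatin protein, was at 0.541, 1.24 and 0.670 CPM and then 24.9, 27.4 and 23.3 CPM, a log2 fold change of 4.91 (SE 0.19, adjusted p = 1.3e-12). For both genes every treated library lay above every vehicle library, as the naming rule requires.

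The transcription factors of the pathway rose as well. JDP2, a repressor of the AP-1 family, went from 0.744, 0.393 and 0.521 CPM to 14.5, 12.6 and 14.1 CPM (log2 fold change 4.62). ATF3, a stress-induced repressor, had a log2 fold change of 3.79, DDIT3 (CHOP) of 2.74, CEBPG of 1.56, CEBPB of 1.38 and ATF4 itself of 1.13. TRIB3, a pseudokinase that feeds back on ATF4, and PPP1R15A, the phosphatase subunit that reverses eIF2α phosphorylation, rose by log2 fold changes of 2.40 and 1.59. VLDLR, a lipoprotein receptor in the list, was scarce with vehicle at 0.541, 0.917 and 0.521 CPM and reached 9.68, 8.86 and 10.4 CPM (log2 fold change 3.84, adjusted p = 4.5e-10). ATF5, a relative of ATF4, was the one member that was not higher (log2 fold change -0.20, adjusted p = 0.045).

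Promoters of the induced genes were then read for the letters of the ATF4 and C/EBP composite element. The core TGATGNAA, on either strand of the 300 bases from 250 before to 50 after a RefSeq gene start (GRCh38.p14), was present in 19 of 267 promoters of genes called higher (7.12%), in 1 of 90 of genes called lower (1.11%) and in 158 of 9510 of all nuclear genes tested (1.66%). Over all 27305 RefSeq promoters, expressed here or not, the share was 3.67%. Symbols matched a promoter for 9510 of 13842 tested nuclear gene names. Among the 15 most induced genes it was present in 3 of 11 promoters (IL21R, KRT34 and CHAC1), and among the 15 most repressed in 0 of 7. The windows below come from the most induced genes and the induced members of the ATF4, amino acid, tRNA synthetase and hormone lists and are shown because these genes rose together. The element was found in 7 of the 32 that had a promoter. List members that were not called were left out of this search. Called or not, the element was in 4 of 15 promoters of the amino acid enzyme list and 3 of 13 of the transporter list. Of these only ASNS, GOT1 and SLC3A2 were called. It was in 2 of 13 promoters of the ATF4 list, 0 of 2 of the synthetase list and 0 of 7 of the hormone list. Capitals mark the core, and each line reads 5′ to 3′ on the strand that carries it. In SLC3A2 the core begins 37 bases past the gene start, and its sequence is not printed.
ASNS: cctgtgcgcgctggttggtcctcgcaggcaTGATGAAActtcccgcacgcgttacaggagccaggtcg
ATF3: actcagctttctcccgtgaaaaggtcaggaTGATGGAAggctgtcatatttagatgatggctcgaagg
CHAC1: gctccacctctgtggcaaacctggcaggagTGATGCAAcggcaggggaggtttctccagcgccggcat
GOT1: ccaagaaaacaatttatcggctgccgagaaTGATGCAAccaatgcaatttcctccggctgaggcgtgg
IL21R: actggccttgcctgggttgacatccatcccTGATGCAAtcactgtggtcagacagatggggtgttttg
KRT34: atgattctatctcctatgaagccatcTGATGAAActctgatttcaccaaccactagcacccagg
The windows lie at chr7:97872439-97872506 (ASNS), chr1:212565186-212565253 (ATF3), chr15:40953232-40953299 (CHAC1), chr10:99430785-99430852 (GOT1), chr16:27427123-27427190 (IL21R) and chr17:41382493-41382556 (KRT34). The core is on the gene's own strand in ASNS, ATF3, IL21R and KRT34 and on the other strand in CHAC1 and GOT1. In ASNS it starts 68 bases before the gene start. A match of letters is not a measured binding site, and an element outside these 300 bases would not be seen.

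The letters of E2F and NF-kB sites were searched in the same way on both strands. The E2F core TTTNNCGC was present in 6.37% of promoters of genes called higher, 7.78% of those called lower and 10.9% of all tested (6.90% of all promoters). The kB core GGANTTTCC was present in 2.25%, 0% (0 of 90) and 1.58% (1.64% of all promoters).

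**Figure D2:**
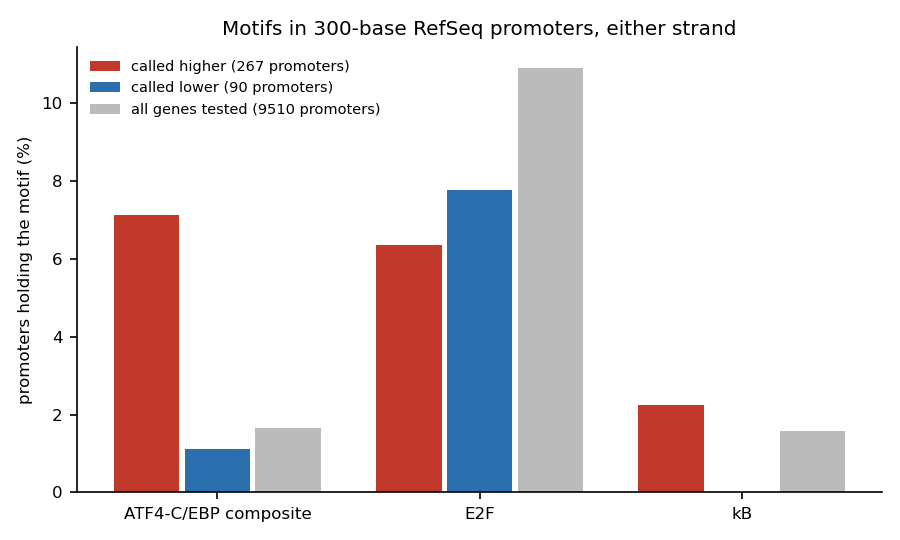
Percent of 300-base promoters (y axis) that hold each of 3 motifs on either strand, for genes called higher (267 promoters), called lower (90) and all nuclear genes tested (9510). The composite element of ATF4 and C/EBP is in 7.12%, 1.11% and 1.66% of them.

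Among the 15 nuclear genes with the largest fold, several are cell-surface proteins that were nearly silent with vehicle. The naming rule set a minimum count only for the higher group, and these genes were ranked by fold. Low vehicle levels among them are therefore favoured by the choice. UNC5B, a netrin receptor, had 1 count in the 3 vehicle libraries together and stood at 5.25, 6.20 and 7.08 CPM with pentamidine, a log2 fold change of 7.61 (SE 0.48, adjusted p = 1.1e-09). From the summed counts the ratio was 265 with a 95% counting interval of 47.1 to 10502, so its size is poorly bounded from above. C5AR1, the receptor for complement fragment C5a, also had 1 vehicle count and reached 3.00, 3.10 and 4.01 CPM, with a count ratio of 145 (25.6 to 5760) and an adjusted p of 4.5e-08. IL21R, the interleukin 21 receptor, was measurable in every library, at 1.08, 0.721 and 1.12 CPM with vehicle and 19.5, 20.5 and 21.7 CPM with pentamidine, a log2 fold change of 4.40 (SE 0.17, adjusted p = 1.3e-12). In none of the 3 did the groups overlap, as the naming rule requires. LAMP3, a lysosomal membrane protein first known from dendritic cells, went from 0.271, 0.0655 and 0.298 CPM to 4.43, 6.12 and 4.90 CPM (log2 fold change 4.58).

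The remaining genes at the top were a keratin, a nuclear regulator, and secreted factors. KRT34, a hair keratin, measured 0.338, 0.197 and 0.149 CPM with vehicle and 12.5, 13.8 and 11.5 CPM with pentamidine, a log2 fold change of 5.72 (SE 0.26, adjusted p = 1.0e-11). AKNA, a centrosomal protein also described as an AT-hook transcription factor, was at 0.406, 0.917 and 0.447 CPM and then at 17.04, 17.6 and 14.5 CPM, a log2 fold change of 4.76 (SE 0.22, adjusted p = 1.7e-11). Both were below 1 CPM in every vehicle library, which the ranking by fold likewise favours. ADM2, a peptide hormone of the calcitonin family, rose from 1.89, 2.88 and 1.19 CPM to 49.9, 50.4 and 52.05 CPM, a log2 fold change of 4.64 (SE 0.15, adjusted p = 9.2e-14). ANGPT4, a ligand of the TIE2 receptor, held 6 vehicle counts in all and stood at 3.27, 2.67 and 3.40 CPM after treatment (log2 fold change 4.41, count ratio 22.3 with an interval of 9.99 to 61.9). Outside the naming rule because its counts were low, INHBE, an activin subunit of liver, went from 1 to 64 summed counts (ratio 63.5, with an adjusted p of 4.9e-06).

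**Figure D3:**
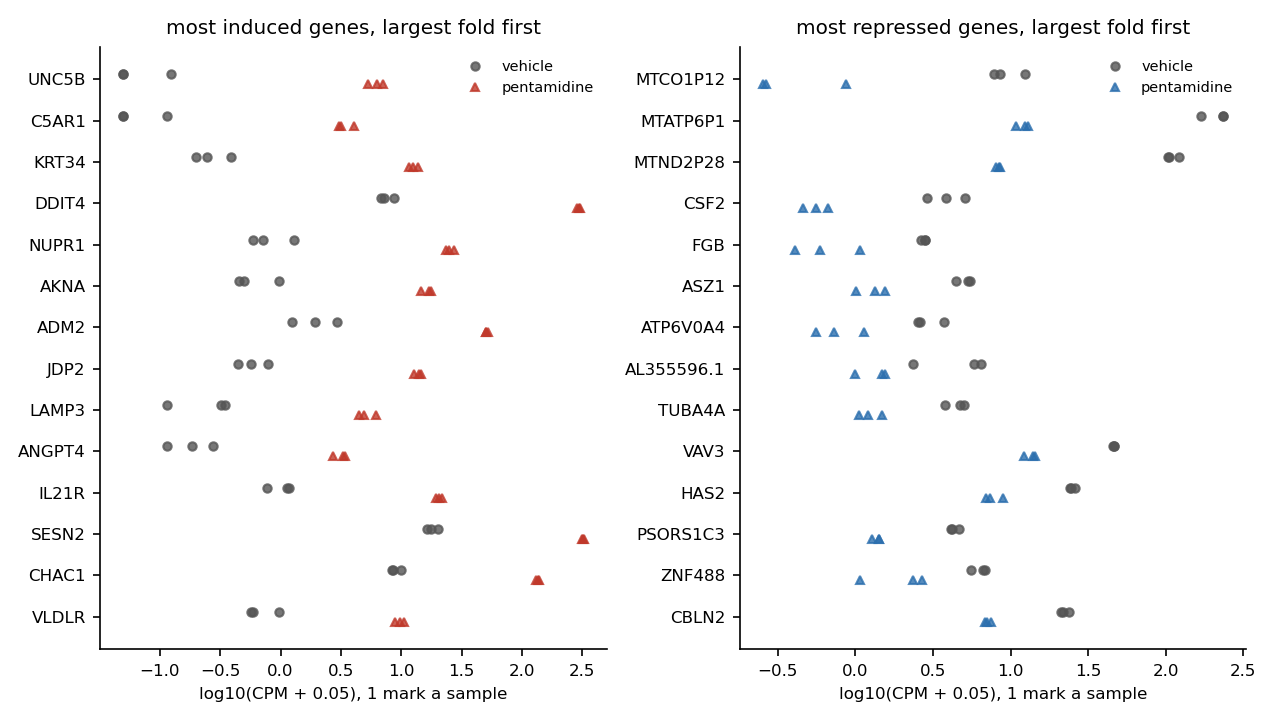
Level of 14 of the 15 most induced (left) and 14 of the 15 most repressed (right) nuclear genes in each library labelled PC3, as log10(CPM + 0.05), with grey circles for vehicle and coloured triangles for pentamidine. In none of these genes do the 3 treated and 3 vehicle libraries overlap, which the naming rule requires.

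Measured by CPM gained, which favours long and abundant transcripts, the 7 leading genes described here included transport, synthesis and tRNA charging of amino acids and a pair of secreted proteins. SLC7A5, the light chain of the main transporter for large neutral amino acids, went from 575, 552 and 605 CPM to 2427, 2340 and 2376 CPM, a log2 fold change of 2.04 (SE 0.05, adjusted p = 1.6e-15). STC2, stanniocalcin 2, a secreted glycoprotein, went from 159, 173 and 179.9 CPM to 1556, 1629 and 1524 CPM, a log2 fold change of 3.20 (SE 0.06, adjusted p = 1.8e-17). FTL, the ferritin light chain, rose from 617 ± 63.00 to 1376 ± 64.1 CPM (mean ± SD, n = 3 here and below), PSAT1 of serine synthesis from 205 ± 4.25 to 913 ± 2.47 CPM, GARS, which charges glycine tRNA, from 349.8 ± 7.30 to 1050 ± 33.97 CPM, OGT, the enzyme that adds O-GlcNAc to proteins, from 354 ± 9.81 to 989.8 ± 42.1 CPM, and GDF15, a stress cytokine, from 244 ± 10.9 to 833 ± 20.7 CPM. All 7 had adjusted p-values of 1.9e-10 or less.

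Enzymes of amino acid synthesis and one-carbon metabolism were higher and lower within one list. Of 25 listed, 24 were tested and 9 were called higher and none lower, while 15 were higher and 8 lower at adjusted p below 0.05 (median log2 fold change 0.76). Of all genes tested, 3.44% were called higher and 1.31% lower, and 21.7% were higher and 21.7% lower at adjusted p below 0.05. The 9 called were the serine synthesis enzymes PHGDH at a log2 fold change of 1.52, PSAT1 at 2.16 and PSPH at 1.28, the mitochondrial folate enzymes ALDH1L2 (3.49), MTHFD2 (1.69) and SHMT2 (1.45), the asparagine synthetase ASNS (2.29) and the transaminases GPT2 (1.64) and GOT1 (1.23). ALDH1L2 went from 1.36 ± 0.189 to 15.3 ± 2.45 CPM and MTHFD2 from 174 ± 14.8 to 558 ± 7.19 CPM. Among the 8 that were lower, grouped here after their values were seen, were the cytosolic folate enzymes SHMT1 at -0.40, MTHFD1 at -0.37 and TYMS at -0.66, each with adjusted p below 0.05 and none called.

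Among 15 tested amino acid transporters of the plasma membrane, 6 were called higher and 1 lower (median 0.87). The shares over all genes tested were again 3.44% called higher and 1.31% lower, and 21.7% each at adjusted p below 0.05. SLC6A9, the glycine transporter GLYT1, rose from 4.72 ± 0.0591 to 67.4 ± 4.28 CPM and SLC1A4, a carrier of serine and alanine, from 1.99 ± 0.821 to 25.2 ± 1.38 CPM. The cystine carrier SLC7A11 (log2 fold change 1.86), the shared heavy chain SLC3A2 (1.63) and the glutamine carrier SLC1A5 (1.31) rose as well. SLC6A6, the taurine transporter, fell from 149 ± 6.93 to 65.2 ± 3.46 CPM (log2 fold change -1.19). Of 20 cytosolic aminoacyl-tRNA synthetases, 5 were called higher (GARS 1.59, WARS 1.55, SARS 1.46, CARS 1.30 and MARS 1.10), and 12 were higher and 3 lower at adjusted p below 0.05 (median 0.56). VARS (-0.15), RARS (-0.22) and FARSA (-0.22) were the 3 that were lower.

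Of 10 tested secreted stress hormones, 5 were called higher and 1 lower, where 3.44% and 1.31% of all genes tested were. Their median was 0.88, and it was 0.24 when 10 counts were required in every library and 1.53 with no filter. Beside INHBE, ADM2, STC2 and GDF15, the called members were VEGFA, the angiogenic growth factor, from 67.9 ± 2.95 to 197 ± 2.61 CPM, and ANGPTL4, an inhibitor of lipoprotein lipase, which fell from 185 ± 2.77 to 89.3 ± 6.93 CPM. STC1, the paralog of STC2, was lower (log2 fold change -0.56, adjusted p = 0.012).

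Other stress lists moved in part. Over all genes tested, 3.44% were called higher and 1.31% lower, and at adjusted p below 0.05 alone 21.7% were higher and 21.7% lower. In the endoplasmic reticulum list of 21 chaperones and quality-control genes, XBP1, a transcription factor of the unfolded protein response, was called higher (log2 fold change 1.42) and SDF2L1, a chaperone cofactor, lower (-1.22), and 11 members were lower against 6 higher at adjusted p below 0.05. Those lower included the chaperones CALR (-0.87), HSP90B1 (-0.77), PDIA4 (-0.82) and MANF (-0.97), whereas HSPA5, the central chaperone, was at 0.54. Among 16 tested targets of NRF2, the regulator of antioxidant genes, 4 were called higher (FTH1 1.45, HMOX1 1.42, FTL 1.16 and TXNRD1 1.14) and none lower. FTH1 and FTL have processed pseudogene copies, so their counts are uncertain. The glutathione enzymes GCLC (0.04) and GCLM (-0.11) did not pass. Of 19 p53 targets 3 were called higher (BBC3 1.52, GADD45A 1.45 and TP53INP1 1.02), and CDKN1A, which encodes p21, was at 0.89 with adjusted p = 1.9e-08, while MDM2 (-0.14) and BAX (-0.10) did not pass. The call of TP53INP1 was lost without vehicle replicate 2 (0.998) or pentamidine replicate 3 (0.92). At adjusted p below 0.05 alone the NRF2 list had 9 higher and 0 lower with a median of 0.46, the p53 list 9 higher and 4 lower with a median of 0.11, and the median of the endoplasmic reticulum list was -0.23.

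Autophagy genes were higher in 13 of 18 and lower in none at adjusted p below 0.05, with MAP1LC3B, a protein of the autophagosome membrane, called (150.2 ± 7.53 to 386 ± 1.16 CPM). Of all genes tested, 21.7% were higher and 21.7% lower at that limit. SQSTM1, the cargo adaptor p62, and CALCOCO2, another adaptor, had log2 fold changes of 0.83 and 0.99. All 5 tested members of the metallothionein list, metal-binding proteins and the zinc exporter SLC30A1, were higher, and MT1F (2.73) and MT1X (1.08) were called. The MT1X call was lost without vehicle replicate 2 (0.90, adjusted p = 0.065) or pentamidine replicate 1 (0.69, adjusted p = 0.12). Among 11 polyamine genes SMOX, spermine oxidase, was called higher (1.55), and SAT1, which acetylates polyamines for export, was at 0.82. Of 18 hypoxia-inducible genes, NDUFA4L2 (2.80), NDRG1 (1.60) and VEGFA were called higher, yet the hypoxia genes BNIP3 (-0.23) and ERO1A (-0.42) were lower and the list's median was 0.11. In the apoptosis list of 23, BBC3 (PUMA) was called higher and BIRC3, an inhibitor of apoptosis, lower (-1.37). Each direction held 4.35% of that list, beside 3.44% higher and 1.31% lower over all genes tested. At adjusted p below 0.05 alone the hypoxia list had 7 higher and 3 lower with a median of 0.11, the polyamine list 4 higher and 2 lower with a median of 0.06 and the apoptosis list 8 higher and 6 lower with a median of 0.10. The medians of the autophagy and metallothionein lists were 0.32 and 0.76.

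**Figure D4:**
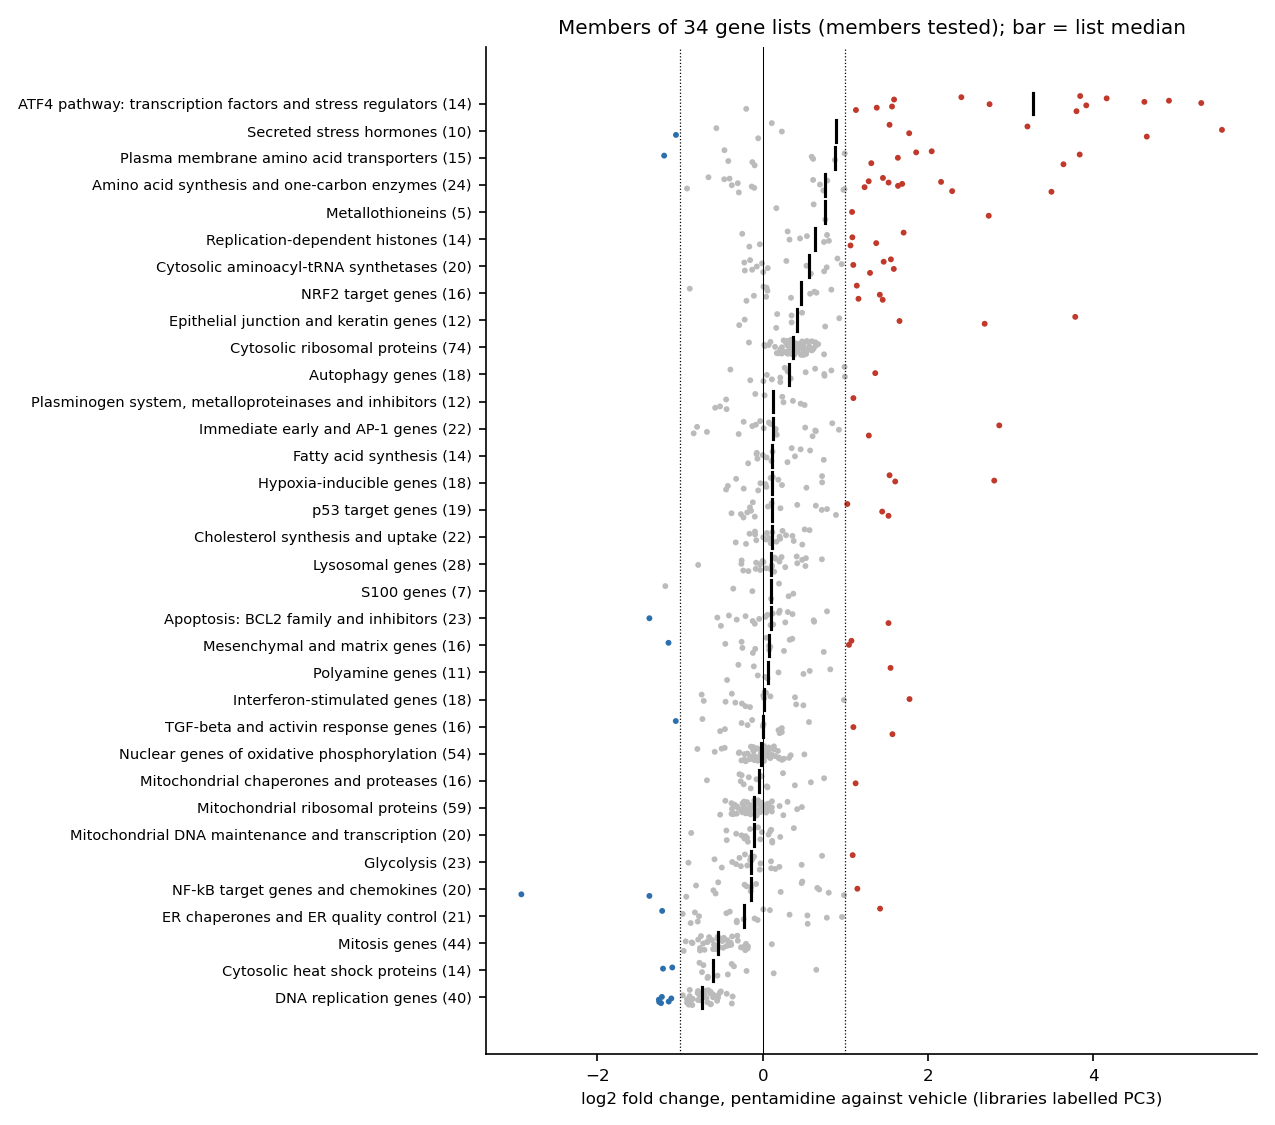
Log2 fold change of each tested member (points) of 34 gene lists in the libraries labelled PC3, with the number tested in brackets and a black bar at the list's median. Called members are red (higher) or blue (lower), and the ATF4 pathway list sits at a median of 3.27 while the DNA replication list sits at -0.73.

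Repression was smaller in size, with 11 nuclear genes past 4-fold. Among genes that met the naming rule, the 3 largest falls were MTCO1P12, MTATP6P1 and MTND2P28, unprocessed pseudogenes on chromosome 1 that are nuclear copies of mitochondrial genes. MTATP6P1 (chr1:633696-634376) went from 168, 235 and 234 CPM to 12.4, 12.9 and 10.8 CPM, a log2 fold change of -4.15 (SE 0.12, adjusted p = 3.9e-14). MTND2P28 and MTCO1P12 had log2 fold changes of -3.74 and -4.50. Their mitochondrial counterparts MT-ATP6, MT-ND2 and MT-CO1 changed by -4.36, -3.65 and -3.99. Reads from copies this alike can be assigned to either, so the 3 values are uncertain as a measure of nuclear transcription.

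Several of the other repressed genes encode secreted proteins or enzymes at the cell surface. CSF2, the cytokine GM-CSF, fell from 2.84, 5.05 and 3.80 CPM to 0.409, 0.504 and 0.612 CPM, a log2 fold change of -2.92 (SE 0.33, adjusted p = 1.6e-06). FGB, a fibrinogen chain, went from 2.77, 2.75 and 2.61 CPM to 0.545, 0.360 and 1.02 CPM (log2 fold change -2.05). HAS2, a hyaluronan synthase, stood at 24.1, 24.6 and 25.8 CPM with vehicle and 7.29, 8.93 and 6.94 CPM with pentamidine, a log2 fold change of -1.69 (SE 0.11, adjusted p = 2.1e-09). Its relative HAS3 also fell, from 317 ± 18.5 to 129 ± 3.88 CPM (-1.30). Both were named from rankings of repressed genes, so their shared direction follows from the choice. CBLN2, a secreted organizer of synapses, went from 21.1, 23.7 and 21.8 CPM to 6.82, 7.42 and 7.01 CPM (-1.65). Outside the naming rule because its counts were under 30, IAPP, the islet hormone amylin, had 27, 18 and 22 counts with vehicle and 0 in all 3 treated libraries, which makes it at least 22.5-fold lower against a floor of 3 counts over the group.

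The rest of the 15 were of varied kinds. VAV3, an exchange factor for small GTPases, fell from 46.3, 46.00 and 46.2 CPM to 13.8, 14.4 and 12.1 CPM, a log2 fold change of -1.78 (SE 0.08, adjusted p = 1.9e-11). TUBA4A, an α-tubulin (-1.88), ATP6V0A4, a subunit of the vacuolar proton pump (-1.91), ZNF488, a zinc finger protein (-1.66), ASZ1, known from germ cells (-2.00), and the noncoding AL355596.1 (-1.91) and PSORS1C3 (-1.69) had at most 6.76 CPM in any vehicle library. PSORS1C3 overlaps POU5F1 on the same strand, and POU5F1 was called lower (log2 fold change -1.33), so their reads may be shared. The 15th gene of the repressed ranking is at -1.65 and the 16th, JAG2, at -1.64, while on the induced side the 15th is at 3.84 and the 16th, SLC6A9, at 3.83.

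By CPM lost, the largest falls were in NCOA3, a coactivator of nuclear receptors, from 628, 660.2 and 580.1 CPM to 311, 305 and 309 CPM (log2 fold change -1.02), and TM4SF1, a tetraspanin-like surface protein, from 502, 546 and 553 CPM to 251, 265 and 263 CPM (-1.04). SULF2, on the other strand, overlaps 530 bases of NCOA3 and had a log2 fold change of -1.63. NCOA3 lies just past the fold limit, and without vehicle replicate 2 its log2 fold change was -0.98. MCM4, a subunit of the replicative helicase, fell from 422 ± 8.18 to 196 ± 3.64 CPM (-1.11). PEG10, an imprinted gene of retrotransposon origin, fell from 313 ± 18.5 to 153 ± 10.7 CPM and was at -0.99 without vehicle replicate 1 or pentamidine replicate 2.

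Replication genes were lower throughout the list, with modest folds. All 40 listed genes were lower at adjusted p below 0.05, 6 of them past the fold limit, with log2 fold changes from -1.26 to -0.36 and a median of -0.73. Of all genes tested, 21.7% were lower and 21.7% higher at adjusted p below 0.05, and 1.31% were called lower and 3.44% higher. MCM10, a factor that helps start replication forks, fell from 73.9, 73.9 and 76.3 CPM to 29.4, 31.2 and 33.3 CPM, a log2 fold change of -1.26 (SE 0.07, adjusted p = 1.3e-10). The flap endonuclease FEN1 (-1.25), the checkpoint adaptor CLSPN (-1.23), the origin-binding subunit ORC1 (-1.22), GINS1 (-1.14) and MCM4 were the other called members. PCNA (-0.88), MCM2 (-0.92) and CCNE2 (-0.89) were lower without a call. In the promoters of this list the E2F core was present in 22 of 35 (62.9%), against 10.9% of all tested. Genes that copy DNA are known to depend on E2F factors, so this share describes the list and not the response. It was 4 of 38 (10.5%) in the mitosis list, which was lower as well. The kB core was likewise in 9 of 18 promoters (50%) of the NF-kB list, whose median log2 fold change was -0.14. A part of E2F in the response was not tested. Of 44 mitosis genes 41 were lower at adjusted p below 0.05 and none was called, with a median of -0.54 and ANLN, a scaffold of the cleavage furrow, lowest (-0.96). CKS1B, CDC25C and CKS2 did not pass. Of 14 tested replication-dependent histone genes, in contrast, 4 were called higher (HIST2H2BE 1.70, HIST1H2AG 1.37, HIST1H2BK 1.08 and HIST1H2AC 1.06) and none lower, while at adjusted p below 0.05 alone 6 were higher, none was lower and 8 did not pass (median 0.64). The labels and the study describe capture of polyadenylated RNA, so only the share of histone transcripts with such a tail was counted, and the call of HIST1H2AC was lost without vehicle replicate 3 (0.97).

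Cytosolic heat shock genes were lower in 12 of 14 and higher in 1 at adjusted p below 0.05, with a median of -0.60. Of all genes tested, 21.7% were lower and 21.7% higher at that limit. HSPA1A, an inducible HSP70, fell from 113, 124 and 119 CPM to 51.7, 49.3 and 53.5 CPM, a log2 fold change of -1.21 (SE 0.06, adjusted p = 4.8e-11). Its near-identical neighbour HSPA1B fell as well (-1.09), and reads of the pair may be shared. HSP90AA1 (-0.73), HSPH1 (-0.76) and DNAJB1 (-0.55) were lower, and HSPA13, an atypical member tied to microsomes, was higher (0.65).

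Nuclear genes of the mitochondrion held 1 call in 4 lists, where 3.44% of all genes tested were called higher and 1.31% lower. At adjusted p below 0.05 alone, 21.7% of all genes tested were higher and 21.7% lower. Of 54 nuclear genes of oxidative phosphorylation none was called, 3 were higher and 6 lower at adjusted p below 0.05, and the median was -0.02. SDHA and SDHD, subunits of complex II, were at -0.50 and -0.46. Among 59 mitochondrial ribosomal proteins none was called, and 4 were higher and 15 lower (median -0.10). In the list of 20 genes that maintain and transcribe mitochondrial DNA none was called, and 2 were higher and 7 lower (median -0.10). TFAM, which packages it, went from 162 ± 12.9 to 119.7 ± 4.73 CPM (log2 fold change -0.44, adjusted p = 1.7e-05). Of 16 mitochondrial chaperones and proteases GRPEL2, a cofactor of mitochondrial HSP70, was called higher (1.12), and LONP1 (0.74) and HSPA9 (0.58) were higher while HSPE1 (-0.67) and HSPD1 (-0.27) were lower, 5 higher and 5 lower with a median of -0.04 in all. Cytosolic ribosomal proteins were higher in 65 of 74 at adjusted p below 0.05, none called, with a median of 0.36 and RPL12 and RPL3 at 0.74 and 0.59. Their share of counts was 4.48% to 5.24% with vehicle and 6.20% to 6.61% with pentamidine, and these genes have many processed pseudogenes.

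The other lists held few calls, to be read beside the 3.44% of all genes tested that were called higher and the 1.31% called lower. At adjusted p below 0.05 alone the shares over all genes tested were 21.7% higher and 21.7% lower. Among 20 NF-kB targets IL6 was called higher (1.15), CSF2 and BIRC3 lower, and NFKBIA (-0.81) was among 9 lower at adjusted p below 0.05. Of 18 interferon-stimulated genes only IFIT3 (1.78) was called higher, 5.56% of the list, while OAS3 was lower (-0.74). KLF4 (2.86) and DUSP5 (1.28) were called higher among 22 immediate early genes, and FOS (-0.83) and MYC (0.10) did not pass. In the TGF-β list of 16, 2 members were called higher, among them CTGF (1.57), and TGFBI lower (-1.05), and 1 of 12 plasminogen-system genes was called higher. The call of TGFBI was lost without pentamidine replicate 1 (-0.94) or vehicle replicate 3 (-0.95). In the epithelial list of 12, the keratins KRT81 (3.78), KRT17 (2.68) and KRT7 (1.65) were called higher, all at means of 5.03 CPM or less with pentamidine, and KRT8 did not pass (-0.22). Among 16 mesenchymal genes TNC (1.07) and ITGB3 (1.04) were called higher and 1 member lower, and without vehicle replicate 2 TNC was at 0.86. At adjusted p below 0.05 alone these lists had 7 higher and 9 lower with a median of -0.14 (NF-kB), 3 higher and 5 lower with a median of 0.01 (interferon), 9 higher and 4 lower with a median of 0.12 (immediate early), 6 higher and 5 lower with a median of 0.01 (TGF-β), 5 higher and 3 lower with a median of 0.13 (plasminogen), 8 higher and 0 lower with a median of 0.41 (epithelial) and 6 higher and 2 lower with a median of 0.08 (mesenchymal). The signs of the interferon and TGF-β medians changed with the processing.

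No member was called among 22 cholesterol genes (9 higher and 3 lower at adjusted p below 0.05, STARD4 0.57 and MSMO1 0.36), 14 fatty acid genes (6 and 1, ACSS2 0.74 and SCD 0.46), 28 lysosomal genes (9 and 5, NPC1 0.72 and GLA -0.78) or 7 S100 genes (1 and 2, S100A11 0.31 and S100A2 -0.36). Their medians were 0.11, 0.11, 0.11 and 0.10. Of 23 glycolysis genes 1 was called higher (4.35%), near the 3.44% over all genes tested. It was the glucose transporter SLC2A3 (1.09, and 0.95 without vehicle replicate 1). At adjusted p below 0.05, 4 glycolysis genes were higher and 11 lower (median -0.14), where 21.7% of all genes tested were higher and 21.7% lower. PFKFB3, which makes the activator of phosphofructokinase, was at -0.90.

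The genes named above by fold or CPM were set beside the libraries labelled DU145, which have their own vehicle controls. Across all genes tested in DU145, 1.37% were called higher and 0.657% lower, and the interaction of treatment and line was called for 2.62% of 15226 genes. Since the genes were chosen for large changes in the PC3-labelled libraries, a larger effect there is favoured by the choice. Of the 15 most induced genes, 9 could be tested in DU145 and 5 of them were called higher there (median log2 fold change 2.05, against 4.62 in the PC3-labelled libraries). DDIT4 changed by 5.30 and 2.05, SESN2 by 4.16 and 2.33, and CHAC1 by 3.91 and 2.89 in the PC3 and DU145 fits. UNC5B, AKNA, LAMP3 and VLDLR did not pass in DU145 (0.60, -0.26, -0.24 and 0.86), and their interactions were called. C5AR1, KRT34, NUPR1, ANGPT4 and IL21R had at most 4 counts in any DU145 library and were not tested there alone.

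All 8 genes with the largest CPM gain were higher in DU145 too, and 3 were called (STC2 1.60, PSAT1 1.53 and GDF15 1.23). Of 12 that were tested in DU145 among the 15, 3 were called lower, all of them the nuclear copies of mitochondrial genes, and CBLN2 was called higher (1.04 against -1.65 in PC3). HAS2 (0.10), TUBA4A (0.08) and ZNF488 (0.01) were near 0 in DU145, and the interaction was called for each. For the nuclear copies MTCO1P12, MTATP6P1 and MTND2P28 the interaction was -0.60, 0.55 and 0.28, none past the size limit.

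**Figure D5:**
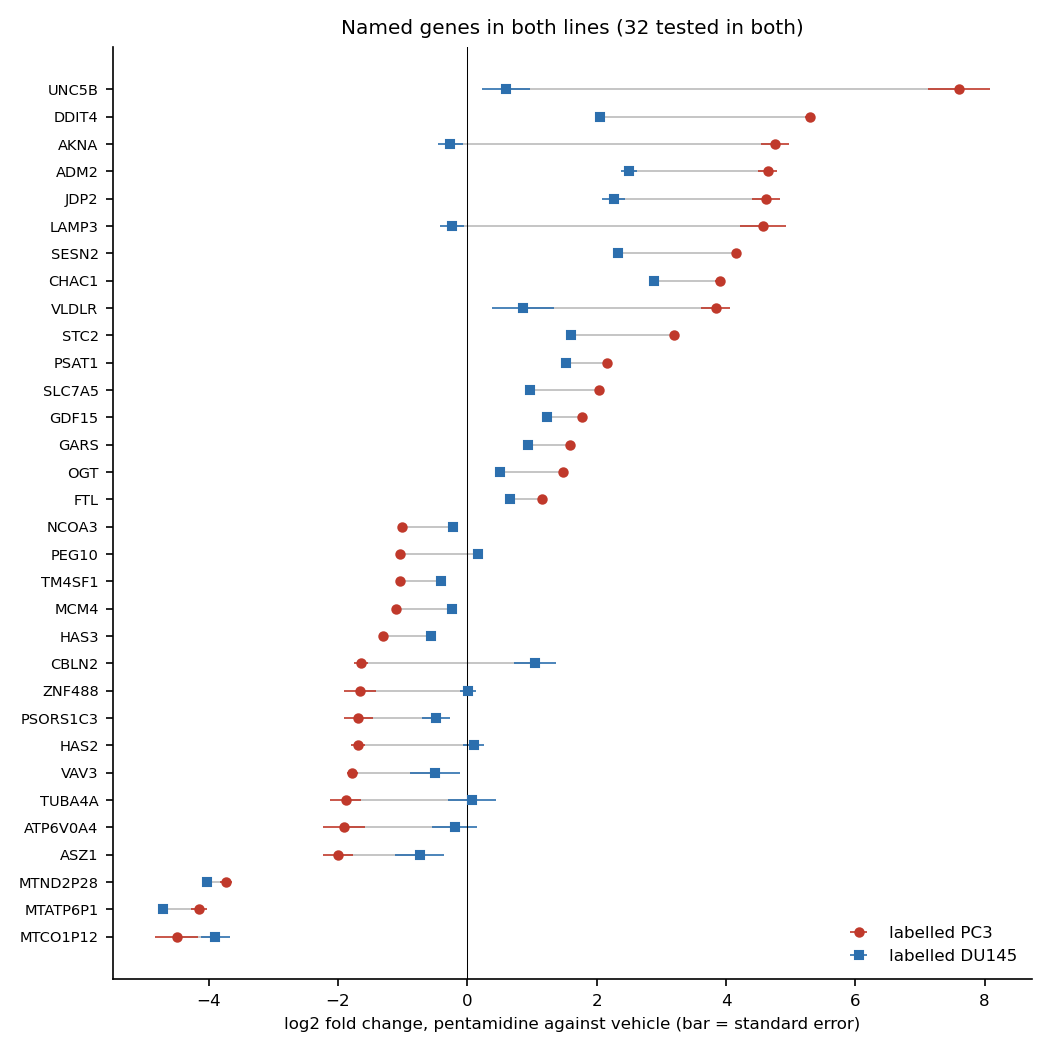
Log2 fold change with its standard error in the libraries labelled PC3 (red circles) and DU145 (blue squares) for 32 genes of the fold and CPM rankings that were tested in both. UNC5B, AKNA and LAMP3 lie far apart, while the nuclear copies of mitochondrial genes lie at -3.74 to -4.70 in both.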

How the data were processed

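Poly(A)-selected RNA of cells labelled PC3 and DU145, 3 libraries per line and treatment, was sequenced by the authors, who, per the submitters' processing notes, aligned reads with HISAT2 2.1.0 to GRCh38 and used DESeq 1.18.1. The authors deposited raw counts per gene; the counting program and strand setting are not given in the sources used here, so antisense and overlapping genes cannot be separated. Here, 44 lines without counts were skipped and 33595 entries merged to 32077 genes. Lists of gene members, as well as this set of libraries, were chosen with earlier results of these data known. The authors' own tables of fold changes and p-values were not used.

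Groups were taken from sample titles. The 6 PC3-labelled libraries were fitted alone in edgeR 4.0.16 (R 4.3.3; TMM normalization, filterByExpr with a minimum count of 10, glmQLFit and glmQLFTest, Benjamini-Hochberg adjustment over all genes). Genes were called at a log2 fold change past 1 and adjusted p below 0.05. CPM are TMM-scaled. The interaction was fitted over all 12 libraries. The fit was tested on simulated data. Replicates of a PC3-labelled group differed by more than sampling (mean chi-square per gene 2.32 to 7.22, against 1 from sampling alone). Counting intervals are exact (Clopper-Pearson, 95%) and cover counting error only.

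Named genes were nuclear, called, without overlap between groups and with at least 30 counts in every library of the higher group: the 15 largest folds and the 8 largest CPM differences in each direction, and per list up to 4 called members, or the 2 with the smallest adjusted p. Other members named beside a list's count were chosen after their values were seen. Gene positions are those of the deposited table (GRCh38), while promoter windows were placed by RefSeq gene starts (GRCh38.p14). The 2 sources can differ, and the windows of ASNS, CHAC1 and IL21R lie inside the gene as the deposited table places it. DESeq2 1.42.0, other normalizations, filters and thresholds, a replicate block, a fit of all libraries and leaving out each library were tried. Some genes that meet these rules are counted but not reported here.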

Additional observations from a re-analysis of the deposited data

Results flagged for a closer look

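Of the 40 genes described by fold or by CPM, 21 had a treatment effect that differed between the libraries labelled PC3 and DU145, by edgeR's interaction test with a size past 1 and an adjusted p below 0.05. Values below are the PC3 minus the DU145 log2 fold change. They are not independent support, since the genes were chosen for their change in the PC3-labelled libraries.

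The 12 induced genes included genes that did not pass or were too scarce to test in DU145, at UNC5B 7.01, C5AR1 6.30, AKNA 5.02, LAMP3 4.81 and VLDLR 2.98. The adjusted p-values of these 5 ran from 1.9e-12 to 8.4e-04, and C5AR1 held few counts in DU145. Stress regulators, hormones and a transporter with a larger log2 fold change in the PC3-labelled than in the DU145-labelled libraries stood at DDIT4 3.25, JDP2 2.35, ADM2 2.14, SESN2 1.83, STC2 1.60, SLC7A5 1.07 and CHAC1 1.02.

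The 9 repressed genes stood at CBLN2 -2.69, TUBA4A -1.96, HAS2 -1.79, ATP6V0A4 -1.71, ZNF488 -1.67, VAV3 -1.28, ASZ1 -1.26, PSORS1C3 -1.20 and PEG10 -1.19. CBLN2, the synaptic organizer, was called in opposite directions in the 2 lines. ASZ1 was nearest to the threshold, with an adjusted p of 0.031, and PEG10 had the smallest at 2.2e-12.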

How the results depend on the processing

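The count of called genes in the PC3-labelled libraries (658) rested on the fold limit: at adjusted p below 0.05 alone it was 6010 (3003 higher, 3007 lower). With at least 10 counts in every library it was 431 of 12681 tested; that filter tests fewer genes, and 16 named genes have no value under it. The other alternatives gave counts within 1.5 times of 658, from 560 (adjusted p below 0.01) to 835 (no filter, 28423 tested), with 611 for DESeq2. Leaving out a library gave 654 to 741, the highest without vehicle replicate 1. That library also differed most from the other vehicle libraries (mean chi-square per gene 5.95 and 7.22, against 3.62 between those). Between 70.8% and 74.8% of calls were higher in every setting with the fold limit. The interaction (399 called) gave 333 with DESeq2, 409 with library size alone and 357 to 412 when a library was left out; with library size alone the share of positive interactions was 56.0%, against 65.4%. With the replicate block the counts were 648 and 362. The labels do not say what a replicate number marks, and same-numbered PC3 libraries deviated from their group means with correlations of -0.03, 0.04 and -0.15, so they share only a number.

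Of 1799 values of the 121 named genes under alternatives, 1780 kept direction and side of the thresholds, 16 lost the call, 3 gained it and none changed sign. Medians of 31 of 34 lists kept their sign under all 14 alternatives; those of the interferon (7 changes), TGF-β (4) and oxidative phosphorylation (3) lists, all near 0, did not. The median of secreted hormones ranged from 0.24 to 1.53, that of p53 targets from 0.09 to 0.31, and other medians near 0 moved likewise; the cause was not tested. Genes under 5.10 CPM have standard errors near 0.31 on the log2 scale.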
